A study of Mus musculus with 4 samples.

Results

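The nuclei described here are lung nuclei with RNA of Tacr1, Lgr6 and Vtcn1, and 2083 of the 134745 barcodes with 1500 or more unique molecular identifiers (UMIs) belonged to them. A UMI stands for 1 captured RNA molecule. A barcode was taken as a member when it held at least 1500 UMIs, at most 2 UMIs of Ptprc, and 6 or more UMIs from at least 4 of the 8 genes Tacr1, Fer1l6, Lgr6, Fut9, Atp10b, St8sia6, Vtcn1 and Wdr72, of which at least 4 came from Tacr1, Lgr6, Fer1l6 and Vtcn1 together. There were 625 members in WT replicate 1, 91 in WT replicate 2, 858 in Tg replicate 1 and 509 in Tg replicate 2, and values below follow this order of the mice. The measured levels of the 8 genes chose the nuclei, so that these levels are described and not tested.

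The lungs came from 2 WT mice and 2 mice with the VEcad-TRF2DN-Tg transgene, all on a C57/BL6J background and aged 8 to 9 weeks. The transgene places a dominant-negative TRF2, a protein that caps telomeres, under the vascular endothelial cadherin promoter, so that it is expressed in endothelial cells and not by design in the airway. Mice of both genotypes had been kept in chronic hypoxia, which the study's methods give as 10% oxygen for 3 weeks, and lungs from normal oxygen were not analysed here. Whole lung was used for nuclei, and 1 library was made per mouse, so that a difference between mice and one between libraries cannot be told apart.

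The conducting airways are lined by ciliated cells, which move mucus, and by secretory cells, which make it. Club cells release secretoglobins and break down foreign chemicals, whereas mucous (goblet) cells release the gel-forming mucins Muc5b and Muc5ac, which are built up with sugars in the Golgi. Tacr1 encodes the receptor of substance P, Lgr6 a receptor of the R-spondins, and Vtcn1 a B7 family ligand that restrains T cells.

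The libraries held 125261739, 146133943, 128645180 and 182014706 UMIs in all barcodes. Members had a median of 3941, 6025, 3344 and 4487 UMIs. The RNA of burst cells that every droplet takes up (free RNA) was read from the barcodes ranked 45000 to 90000 by UMIs. From 16 endothelial and fibroblast genes, whose level in the members was set against that in the free RNA, free RNA made up an estimated 37.1%, 33.4%, 41.6% and 41.4% of the members' UMIs (the median over the 16). Single genes gave 0% to 104%, so that the estimate is rough. By it, a gene without RNA of the members' own would stand near that share of its free RNA level. A level below the full free RNA therefore does not show that a gene is absent from the members. The mitochondrial share of the members' UMIs was 0.0414%, 0.0524%, 0.235% and 0.239%, higher in both Tg libraries. Between 11.7% and 20.9% of the members also passed the marker gate of another class, the ciliated gate in 4.40% to 7.68% and the alveolar type 1 gate in 1.28% to 7.69% by mouse, and 3 member barcodes occurred in more than 1 library.

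The 8 genes of the rule were not equally high in all mice. Levels are given as CPM, the UMIs of a gene per 1000000 UMIs of the summed members of a mouse. Tacr1 stood at 1058, 779, 659 and 599 CPM, against 103, 21.3, 10.2 and 9.52 CPM in the free RNA. Vtcn1 stood at 454, 527, 695 and 538 CPM. Atp10b, a lipid flippase, was the most even of the 8, between 216 and 228 CPM. Lgr6 was the most uneven, with 215, 10.9, 523 and 315 CPM, and an Lgr6 UMI was seen in 44.8%, 8.79%, 78.8% and 63.3% of the members. Fut9, a fucosyltransferase, was likewise low in WT replicate 2, with 514, 128, 413 and 324 CPM. Fer1l6, of the ferlin family of membrane fusion proteins, was highest in WT replicate 1, with 2236, 903, 693 and 492 CPM. The name of these nuclei thus describes WT replicate 2 poorly, where 83 of the 91 members carried no Lgr6 UMI and none carried all 8 genes.

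**Figure D1:**
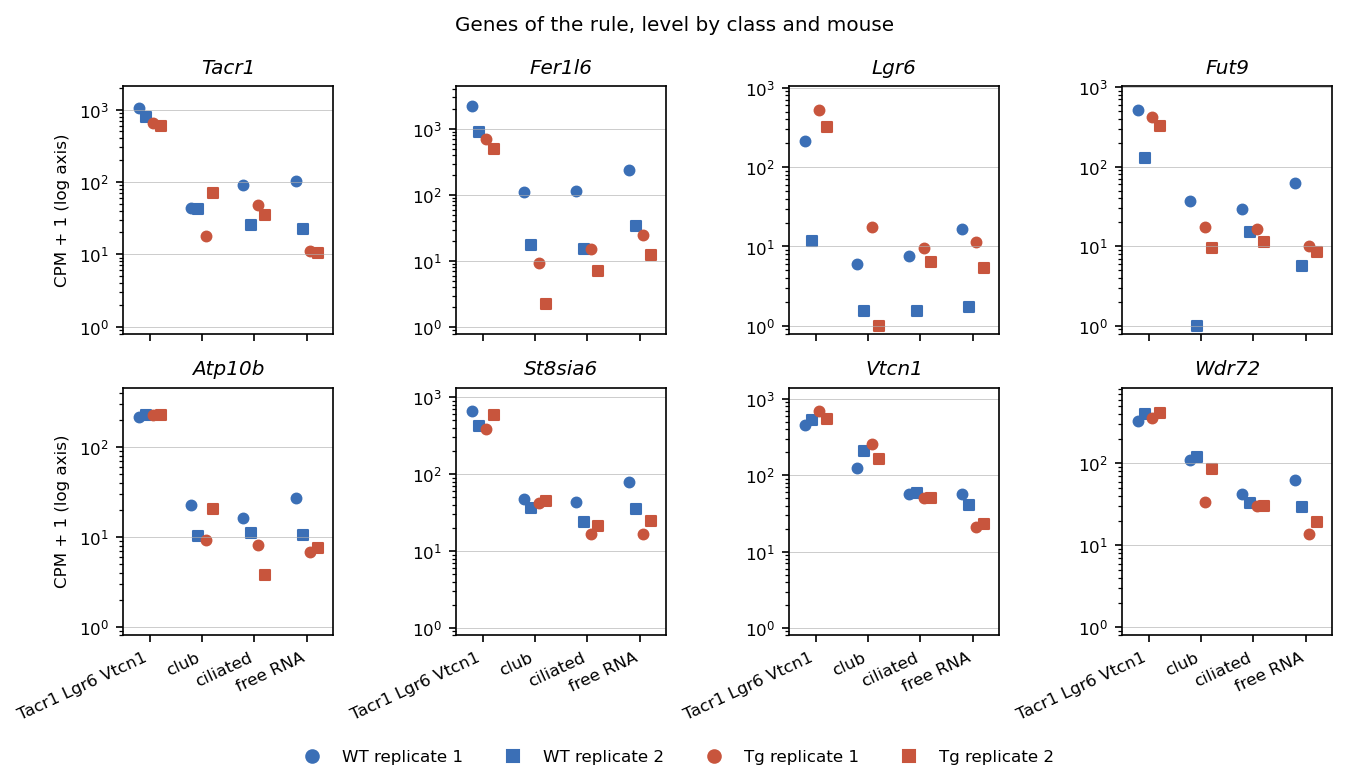
Level of the 8 genes of the rule in each mouse, as CPM + 1 on a log axis, in the summed Tacr1 Lgr6 Vtcn1 nuclei, club nuclei, ciliated nuclei and free RNA. Blue marks WT and red Tg mice, and Lgr6 in WT replicate 2 (10.9 CPM) lies far below the other members' sums.

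By the rule, each member held at least 6 UMIs of the 8 genes, and the median was 22, 18, 13 and 16. At the threshold, 18, 4, 23 and 14 members held exactly 6 such UMIs, and 70, 5, 63 and 45 barcodes from 4 or more genes stopped at 5. At least 10 UMIs of the 8 genes were found in 88.3%, 84.6%, 78.2% and 83.5% of the members.

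Checked against markers, the members held RNA of airway secretory cells, with genes known from mucous cells higher than in club nuclei. Of 12 airway secretory genes, 4 stood above the full free RNA level in all 4 mice. Against club nuclei, 7 of the 10 tested were higher and 1 was lower, where 11.1% and 7.8% of all genes were. Spdef and Foxa3, transcription factors of mucous cells, Muc5b, and Clca1 and Fcgbp, which are secreted with mucus, were all higher than in club nuclei of the same mice. Club nuclei, 193, 417, 46 and 260 in number, were chosen by the same kind of rule from 8 club genes. Both classes were picked by their RNA and the picking genes were left out of the test, so that the calls describe the classes and are no independent evidence of what they are. Of 11003 genes tested with edgeR's quasi-likelihood test over the sums of the 4 mice, 18.9% were called at an adjusted p of 0.05, 11.1% higher and 7.8% lower in the members. The p-values of all tests measure the spread between these few mice.

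Muc5b stood at 984, 724, 753 and 582 CPM in the members and at 213, 61.1, 66.4 and 102 CPM in club nuclei, and the classes did not overlap. The difference was 2.79 ± 0.17 (log2, SE, n = 4 mice, edgeR adjusted p = 2.57e-09). A Muc5b UMI was found in 92.8%, 90.1%, 85.3% and 83.5% of the members. With every nucleus thinned to 1500 UMIs the shares were 71.5%, 63.7%, 62.6% and 52.5%, against 26.9%, 9.6%, 11.1% and 8.85% in endothelial nuclei, a class that does not make it and shows the free RNA. Muc5ac, the other gel-forming mucin, stood at 135, 197, 44.1 and 24.7 CPM, with at most 13.2 CPM in club nuclei (4.09 ± 0.27, adjusted p = 5.74e-09).

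Of 12 mucous genes, a list made after values had been seen, all 12 were higher in the members than in club nuclei and all 12 were higher than in ciliated nuclei, with a median log2 difference of 2.96 from club nuclei. Over all genes tested against club nuclei the median was -0.01. All 12 also stood above the free RNA in each of the 4 mice. As the list was made after values had been seen, these counts describe the 12 genes and are no test. Ern2, a sensor of protein folding in mucous cells, differed from club nuclei by 4.38 ± 0.37 on the log2 scale, Foxa3 by 3.42 ± 0.32, Clca1 by 3.14 ± 0.27 and Spdef by 2.17 ± 0.28. Creb3l1, which enlarges the secretory pathway, differed least, by 0.97 ± 0.18.

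**Figure D2:**
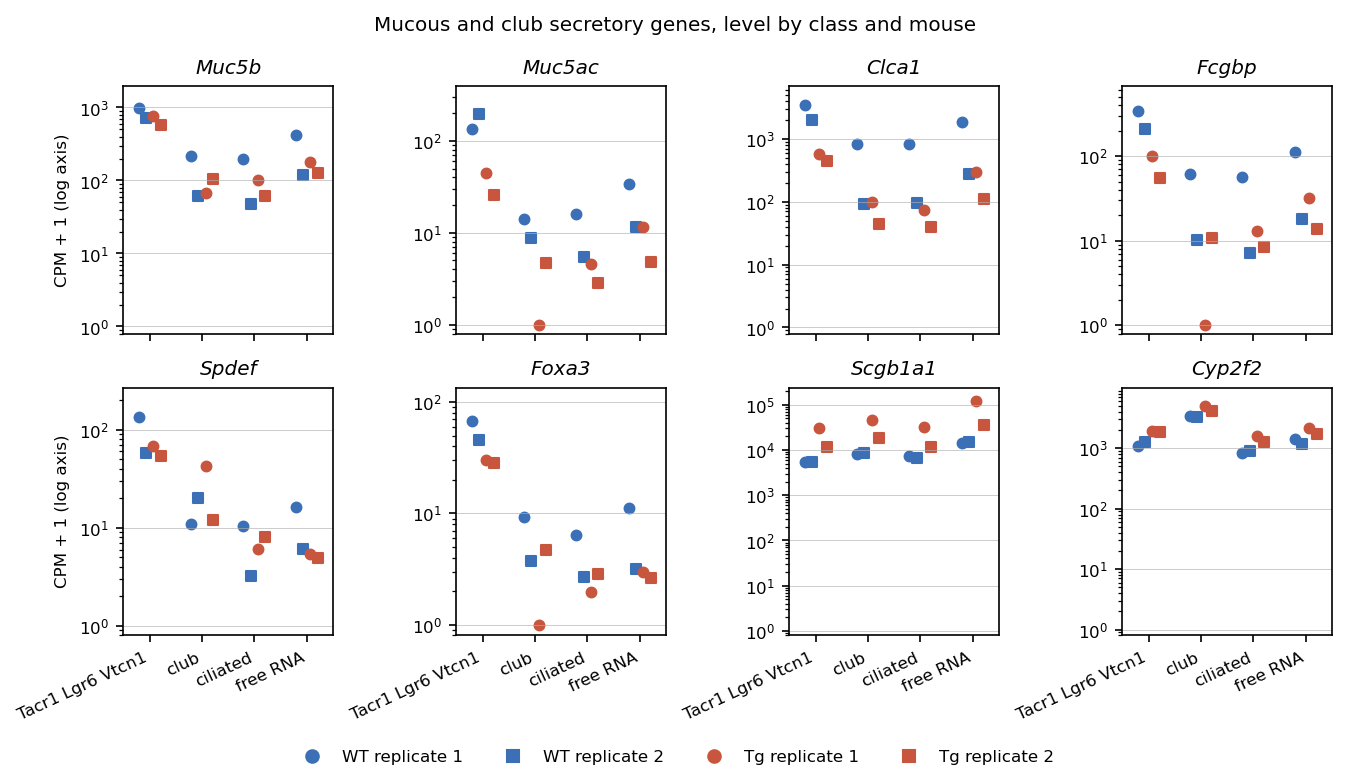
Level of 6 mucous genes and of the club genes Scgb1a1 and Cyp2f2 in each mouse, as CPM + 1 on a log axis, in the members, club nuclei, ciliated nuclei and free RNA. Muc5b is at 582 CPM or more in the members and at 213 CPM or less in club nuclei, whereas Scgb1a1 is below the free RNA in every mouse.

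Club secretory RNA was present, and whether it stood above the free RNA differed between genes and mice. Scgb1a1, the main club secretoglobin, stood at 5326, 5445, 30659 and 11578 CPM in the members, and at 14242, 14681, 117613 and 35512 CPM in the free RNA. The members were below club nuclei in all 4 mice, by -0.67 ± 0.07 on the log2 scale (adjusted p = 1.31e-06). Cyp2f2, a club cytochrome used to pick the club nuclei, stood at 1087, 1289, 1927 and 1874 CPM in the members and between 3307 and 4985 CPM in club nuclei. All genes used to pick the club nuclei summed to 4151, 5066, 10455 and 8067 CPM in the members. Their sum was 4902, 4477, 12022 and 7701 CPM in the free RNA, and 3290, 3445, 7205 and 5239 CPM in ciliated nuclei. The members' sum was thus above the full free RNA level in WT replicate 2 and Tg replicate 2 only. In all 4 mice, 3 of these genes were above that level. Free RNA made up an estimated 33.4% to 41.6% of the members' UMIs, so that RNA of their own needs no level above the free RNA. How much of the club RNA was their own was not tested. The 12 mucous genes summed to 6077, 3951, 2834 and 2172 CPM in the members, below the club genes in all mice but WT replicate 1.

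Defining markers of other airway types were at or near 0, but not all of their lists were. The 4 basal genes summed to 5.8, 0, 11.8 and 1.87 CPM, against 3.76, 2.22, 4.86 and 3.76 CPM in the free RNA, and the sum came mostly from Trp63, with 18, 0, 34 and 1 UMIs. No UMI of the hillock genes Krt13, Krt4 and Krt6a was found, and Foxi1, which defines ionocytes, had 1 UMI in all members together. The 4 ionocyte genes summed to 166, 185, 141 and 216 CPM, below the free RNA in each mouse. The tuft channel Trpm5 also had 1 UMI, whereas the 4 tuft genes summed to 55.4, 42.1, 77.6 and 79.5 CPM, against 91.6, 57.3, 17.7 and 37.4 CPM in the free RNA, mostly from Dclk1 at 48.3, 39.4, 70.8 and 73.1 CPM. The tuft sum was thus above the free RNA in both Tg mice. The 5 gland genes, led by Ltf, summed to 61.2, 88.3, 227 and 243 CPM and were above the free RNA in all mice but WT replicate 1. Summed markers of endothelial, fibroblast, mesothelial, alveolar type 2 and immune cells were below the free RNA in all 4 mice. Those of alveolar type 1 cells were below it in 3 mice and above it in WT replicate 2, at 1240 against 1197 CPM. The 8 ciliated genes were above it, at 2605, 1176, 1720 and 1551 CPM against 1390, 620, 501 and 386 CPM, and all 8 were called higher than in club nuclei. Without the members that also passed the gate of another class, their sum was 502, 231, 392 and 303 CPM, against 608, 265, 224 and 191 CPM in club nuclei. The ciliated gate uses these same 8 genes, so that leaving out its nuclei had to lower the sum, and what part other nuclei in the same droplet have in it was not tested.

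The nuclei differed more between mice of a genotype than between genotypes in number. They were 2.32%, 0.236%, 3.40% and 1.16% of the barcodes with 1500 or more UMIs, with exact 95% binomial intervals of 2.14% to 2.51%, 0.190% to 0.290%, 3.18% to 3.63% and 1.06% to 1.26%, which cover counting error only. Droplets of free RNA held a median of 918, 868, 794 and 1099 UMIs and a 95th percentile of 1150, 1252, 965 and 1437. The cut at 1500 lies close to these, so that the share is one of barcodes and not of lung nuclei. The mean was 1.28% ± 1.47 (SD, n = 2) in WT and 2.28% ± 1.58 (SD, n = 2) in Tg mice, and the genotypes overlapped (exact two-sided permutation p = 0.67). With 2 mice against 2, this test cannot go below 0.33. Fewer nuclei of this kind and less RNA of the 8 genes per nucleus cannot be told apart by this rule.

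The ratio to club nuclei moved even more, with 3.24, 0.218, 18.7 and 1.96 members per club nucleus (exact two-sided permutation p = 0.67). WT replicate 2 had the fewest members and the most club nuclei, and Tg replicate 1 the reverse. Nuclei of the other classes had to hold at least 2 times the UMIs that the free RNA of their mouse would give. Members had no such bar. The club genes summed to 4902, 4477, 12022 and 7701 CPM in the free RNA, so that the bar for club nuclei was highest in Tg replicate 1. What part this has in the ratio was not tested. Set against ciliated nuclei, of which there were 911, 406, 1188 and 874, the ratios were 0.686, 0.224, 0.722 and 0.582 (p = 0.67 by the same exact test). Of all nuclei that passed any gate, members were 13.2%, 2.19%, 9.89% and 6.24%.

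**Figure D3:**
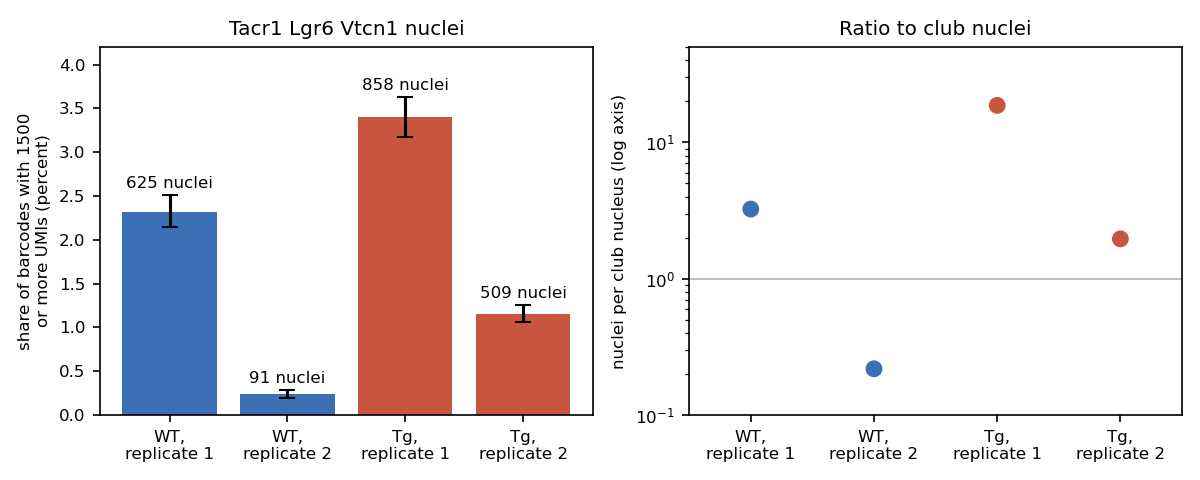
Left, share of the Tacr1 Lgr6 Vtcn1 nuclei among barcodes with 1500 or more UMIs in each mouse, with exact 95% binomial intervals as bars and the number of nuclei above. Right, their number per club nucleus on a log axis, from 0.218 in WT replicate 2 to 18.7 in Tg replicate 1.

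The members also differed from club nuclei in genes outside the mucous list. The 15 genes highest over club nuclei were ranked among those with a mean of at least 50 CPM in the members. They included Muc5ac, 4 unnamed loci and 10 others. Megf11, a scavenger receptor-like protein, stood at 193, 50.2, 114 and 81.4 CPM in the members and at 3.65 CPM or less in club nuclei (5.30 ± 0.29, log2, adjusted p = 8.34e-10). Scin, an actin-severing protein, differed by 4.88 ± 0.25 and Actn2, an actin crosslinker, by 4.45 ± 0.21. Hnf4g, a nuclear receptor of gut epithelium, stood at 107, 10.9, 67.8 and 54.7 CPM, with no UMI in the club nuclei of 3 mice. Fut2, which fucosylates mucins and sets their H antigen, stood at 93.1, 54.3, 61.3 and 50.6 CPM against 8.24 CPM or less (4.13 ± 0.31). The others were Sobp, Ptprn2, Oit1, Galntl6 and Capn13, at 3.51 to 4.05 on the log2 scale. Galntl6 was not particular to the members, which held 1153, 196, 430 and 459 CPM of it. Ciliated nuclei held 1643, 162, 1187 and 755 CPM, more than the members in all mice but WT replicate 2.

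The 15 genes furthest below club nuclei were ranked among those with a mean of at least 50 CPM in club nuclei. Of these, Col23a1, a membrane collagen, stood at 399, 783, 348 and 543 CPM in the members and between 1949 and 2406 CPM in club nuclei (-2.17 ± 0.13, edgeR adjusted p = 1.82e-09). Crb1 and Ncam2, of cell polarity and adhesion, were lower by -3.13 ± 0.19 and -2.80 ± 0.21. Frmpd4, Rasgrf1, Bmx, Arhgap24, Btbd11, Nwd2, Gfra1, Homer2 and Atp13a4 were also among them, with 2 unnamed loci. Every one of these genes was called in the same direction in all alternatives that gave it a value.

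**Figure D4:**
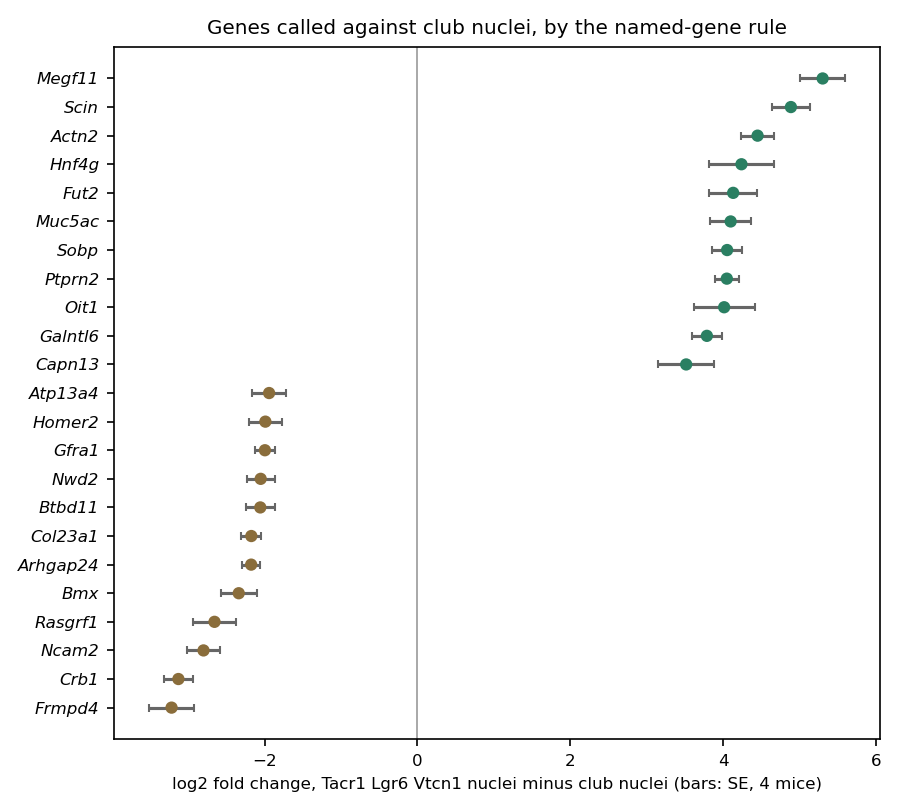
Log2 fold change of the Tacr1 Lgr6 Vtcn1 nuclei minus club nuclei for genes named in the text, with standard errors over the 4 mice as bars. Genes higher in the members run from Capn13 to Megf11 (3.51 to 5.30), and genes lower run from Atp13a4 to Frmpd4 (-1.94 to -3.22).

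Counts in pathway lists are to be read against the 11.1% of all genes called higher and 7.8% called lower than in club nuclei. Of 11 mucin O-glycosylation genes tested, 5 were higher in the members than in club nuclei and none was lower, with a median of 0.60 on the log2 scale. Galnt12, which adds the first sugar, stood at 84.1, 69.2, 70.5 and 44.6 CPM against 4.87 to 13.2 CPM (2.86 ± 0.23, adjusted p = 5.2e-08), and Galnt7 differed by 2.01 ± 0.12. Of 10 sialyltransferases tested, 3 were higher and none lower, among them St3gal4 (1.77 ± 0.13). Among secretory transcription factors, 6 of 16 were higher and 3 lower, and Pax9, a factor of foregut epithelium, had no UMI in the club nuclei of 3 mice against 34.2, 4.07, 82.9 and 47.2 CPM in the members. Both ferlins tested beside Fer1l6 were higher, Myof by 1.09 ± 0.10 and Fer1l4 by 2.09 ± 0.38.

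Ion transport was split. Of 14 genes tested against club nuclei, 4 were higher and 5 lower, where 11.1% and 7.8% of all genes were. Slc12a2, which loads chloride into secreting cells, stood at 773, 525, 504 and 579 CPM against 263 to 376 CPM (0.91 ± 0.10), and the chloride channel Ano1 was higher by 1.31 ± 0.16. Scnn1b and Scnn1g, subunits of the sodium channel that takes up airway fluid, were lower by -1.54 ± 0.12 and -0.63 ± 0.16, and Slc4a5, a bicarbonate transporter, by -1.003 ± 0.107. Of 16 genes of xenobiotic metabolism, 7 were lower and 2 higher, with Ces1d at -1.49 ± 0.09 and Gsta3 at -1.21 ± 0.11. Of 16 clock genes, 8 were lower, among them Per2 (-1.02 ± 0.14) and Per3 (-1.03 ± 0.11), and 3 were higher, among them Arntl (1.56 ± 0.23) and Npas2 (2.26 ± 0.21), which drive the period genes.

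In the families of Tacr1, Lgr6 and Vtcn1, Lgr4 was the only other gene called against club nuclei. Of the other tachykinin receptors and ligands, none had enough UMIs for a test, with Tacr2 and the substance P gene Tac1 at 0 in the members of all 4 mice, which allows 3 UMIs in a mouse. Lgr4, another R-spondin receptor, stood at 97.6, 33.9, 59.8 and 62.6 CPM against 8.29 to 29.7 CPM in club nuclei (1.20 ± 0.22), whereas Lgr5 had 9 UMIs or fewer in each mouse and was not tested. Of the 4 other B7 family genes tested against club nuclei, none was called. Vtcn1 itself was not confined to the members, with 122, 207, 257 and 164 CPM in club nuclei against 55.6, 39.4, 19.8 and 21.8 CPM in the free RNA.

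Against ciliated nuclei, 35.4% of 13674 genes were called, 16.2% higher and 19.2% lower in the members, and the comparison shares the members' sums with that against club nuclei. In genes with a mean of at least 50 CPM in the members, Fut2 differed most, with at most 3.48 CPM in ciliated nuclei (5.45 ± 0.29, log2, edgeR adjusted p = 5.89e-08). Capn13, Scin, Slc25a21, Hnf4g, Muc5ac, Spdef, Actn2, Sybu, Oit1, Clca1 and Fcgbp followed, at 3.08 to 4.53, with 3 unnamed loci. The 15 furthest below ciliated nuclei were ranked among genes with a mean of at least 50 CPM in ciliated nuclei. They included Lrrc9 (-3.53 ± 0.18) and Ttll6, which modifies the tubulin of cilia (-2.98 ± 0.18), with Kcnmb4, Itga11, Neurl1a, Ccdc13, Lrrc43 and T2. Unnamed loci made up 6 of the 15.

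Between genotypes, Scin and Clca1 were among the genes lower in the members of Tg mice. Scin stood at 500 and 308 CPM in the WT mice and at 45.3 and 40.5 CPM in the Tg mice (-3.29 ± 0.28, log2, edgeR adjusted p = 0.00145). Clca1, which processes mucus, stood at 3468 and 1981 against 581 and 446 CPM (-2.45 ± 0.33, adjusted p = 0.00478). In both genes the WT mice did not overlap the Tg mice. Of 13484 genes tested over the 4 sums, 7.5% (1011) were called, 6.26% (844) higher and 1.24% (167) lower in the Tg mice. All of them were without overlap, as were 56.2% of all genes tested. The count was 298 without Tg replicate 1 and 2051 without WT replicate 2, and 0 after the estimated free RNA was subtracted, as given further on.

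The 10 genes with the largest fall were Ccl24, Slc12a8, Capn9, Gm6209, Cdc20b, Fam3b, Scin, Gm48099, Egln3 and Slc7a11. Slc12a8, a solute carrier, stood at 88.6 and 43.4 CPM in WT and 4.44 and 3.0 CPM in Tg members (-4.23 ± 0.43). Fam3b, a secreted protein, stood at 75.1 and 78.8 against 9.18 and 6.37 CPM (-3.32 ± 0.28). Egln3, an oxygen-sensing prolyl hydroxylase, stood at 67.7 and 54.3 against 5.63 and 10.9 CPM (-2.98 ± 0.34). In these and in Capn9 and Scin the members of both WT mice stood at 5 or more times the free RNA of their mouse. The ratio to the free RNA overlapped between genotypes for Scin (6.70, 30.7, 10.7 and 10.5) and Capn9 (9.46, 26.7, 7.16 and 16.8). For Slc12a8, Fam3b and Egln3 it was lower in both Tg mice than in either WT mouse. The chemokine Ccl24 had 27 UMIs in the WT members and none in the Tg members, at least 14.2-fold lower with a floor of 3 UMIs over the group, and it lay below the free RNA in both WT mice.

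The calls of mucous genes were not alike. Of the 12, 4 fell, 1 rose and 7 were not called, where 1.24% of all genes fell and 6.26% rose. The median change over the 12 was -0.59 on the log2 scale, against 0.02 over all genes tested. With 2 mice against 2, a gene not called may still have moved. Muc5ac stood at 135 and 197 CPM in WT and 44.1 and 24.7 CPM in Tg members (-2.27 ± 0.31, adjusted p = 0.00494), Fcgbp at 338 and 212 against 101 and 54.0 CPM (-1.88 ± 0.33), and Foxa3 at 66.4 and 44.8 against 29.0 and 27.4 CPM (-1.07 ± 0.27). Muc5b, at 984, 724, 753 and 582 CPM, was not called (-0.40 ± 0.25, adjusted p = 0.345), nor was Spdef (-0.77 ± 0.35, adjusted p = 0.2). Bpifb1, an antimicrobial protein of the mucus, stood at 303 and 126 against 709 and 547 CPM and was called higher (1.46 ± 0.36, adjusted p = 0.0445).

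Clca1, Fcgbp and Muc5ac belong to the genes that interleukin-13 induces in airway epithelium, together with Slc26a4, Chil4 and Ccl24. Of 9 such genes tested, these 6 were lower in the Tg members and none was higher, where 1.24% and 6.26% of all genes were. The median over the 9 was -2.27, against 0.02 over all genes tested. The list was made after values had been seen, so that the count and median describe these genes and are no test of a response. Ccl24 stood at 0.238 and 0.461 times the free RNA in the WT members. None of the 6 was called after the subtraction of free RNA. Slc26a4, an anion exchanger, stood at 347 and 168 against 42.4 and 42.0 CPM (-2.69 ± 0.33, adjusted p = 0.00354). Its level in the free RNA of the same mice was 513, 147, 16.4 and 52.4 CPM. Clca1 likewise fell in the free RNA, from 1861 and 273 to 296 and 108 CPM, where the mice overlapped.

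Among other genes lower in the Tg members were St3gal4, Kcnq1, Tfcp2l1 and Pigr of the lists and Plcl1 of the interaction test. St3gal4, a sialyltransferase, stood at 1262 and 995 against 501 and 475 CPM (-1.25 ± 0.22, adjusted p = 0.0136). Kcnq1, a potassium channel, stood at 495 and 481 against 204 and 267 CPM (-1.10 ± 0.20). Plcl1, an inactive relative of phospholipase C, stood at 1301 and 1003 against 162 and 219 CPM (-2.65 ± 0.25, adjusted p = 0.00163). Tfcp2l1, a transcription factor, fell by 0.82 on the log2 scale, and Pigr, the receptor that carries antibodies into mucus, by 0.95.

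**Figure D5:**
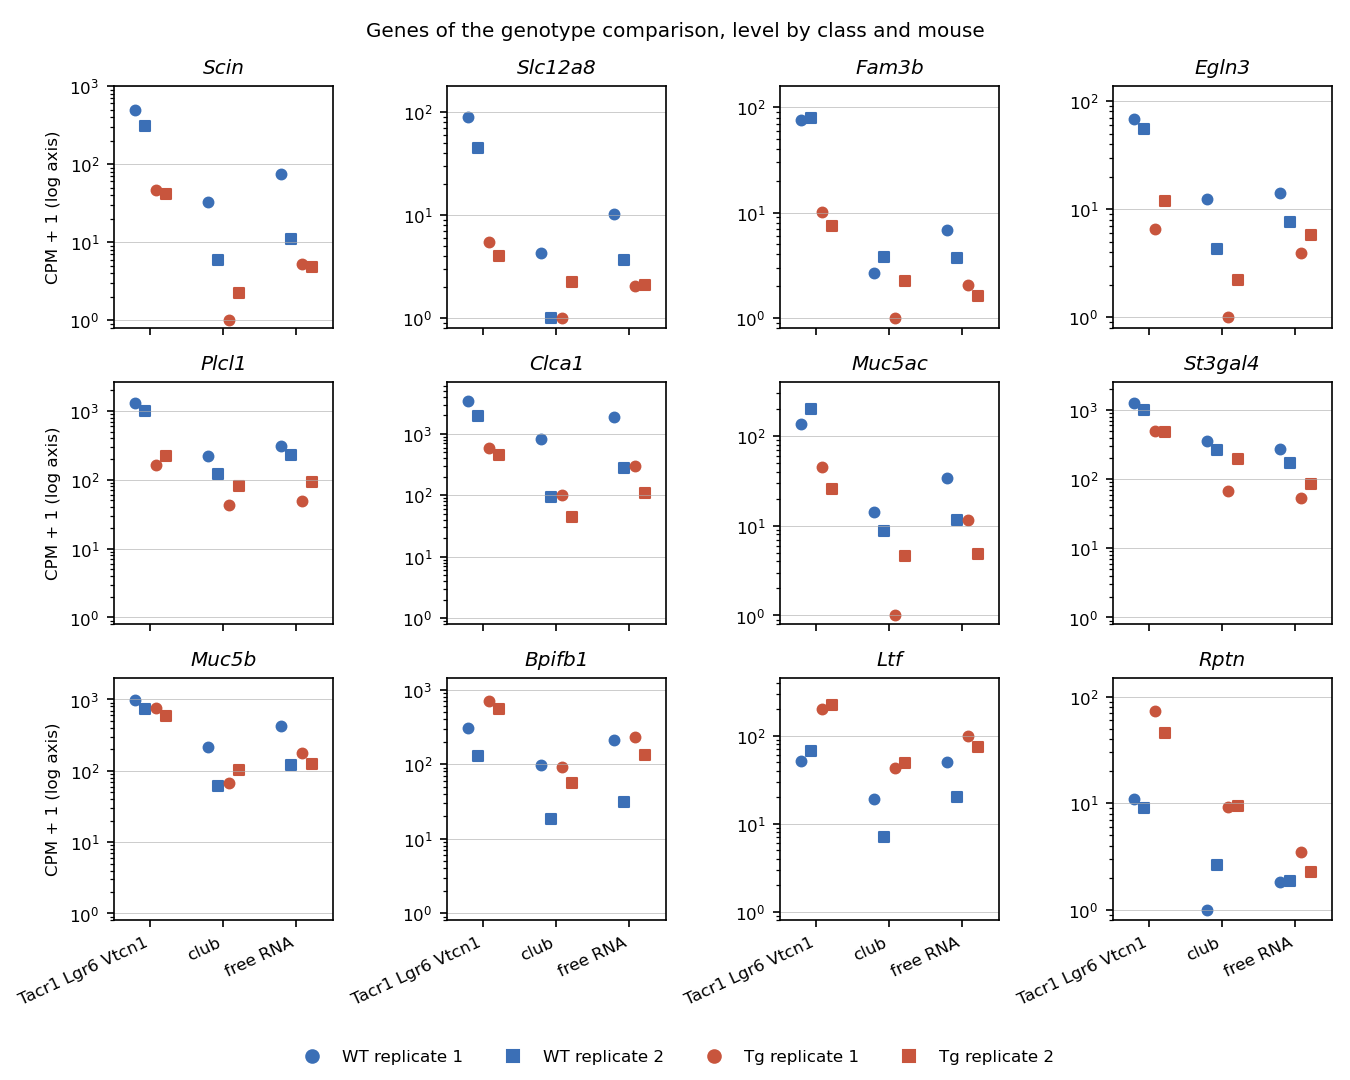
Level of 12 genes of the genotype comparison in the members, club nuclei and free RNA of each mouse, as CPM + 1 on a log axis, with WT in blue and Tg in red. Scin, Slc12a8, Fam3b, Egln3, Plcl1, Clca1, Muc5ac and St3gal4 are lower in the members of both Tg mice, Muc5b overlaps between genotypes, and Bpifb1, Ltf and Rptn are higher.

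Among the genes higher in Tg members, the 10 with the largest rise had no UMI in the WT members and few in the Tg members. They were Gm26954, Cib2, Gm27200, Gm17130, Acd, 5430431A17Rik, Gm16000, Gm14764, Gm48228 and Armcx2. Gm26954 had 68 UMIs in the Tg members, at least 14.4-fold higher with a floor of 3 UMIs over the WT group, and Cib2, a calcium-binding protein, had 48 (at least 10.2-fold). Acd, a shelterin protein that joins TRF2 at telomeres, had 36 UMIs (at least 7.63-fold). Cib2, Acd and Armcx2 stood below the free RNA of the same mice, whereas Gm26954 stood at 23.4 and 8.31 times it.

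Most of the genes called between genotypes moved alike in the free RNA. Of the 844 higher genes, 802 were also higher in the free RNA of both Tg mice, as were 29.8% of all genes tested, and of the 167 lower genes 163 (97.6%) were lower there, as were 43.4% of all. Of the 86 ribosomal protein genes tested, 76 were among the higher genes, as were 6.26% of all genes. The estimated free RNA was therefore subtracted from the sums, once with the profile of the ranked barcodes and once with that of barcodes of 20 to 100 UMIs. With the ranked profile edgeR called 0 genes, with 1388 at an unadjusted p under 0.05. Of the 155 lower genes that kept a value, 152 (98.1%) kept their direction, with a median of -1.10 before and -1.04 after. Only 406 of the 844 higher genes had a value, since the others fell under the filter on low counts. Of the 406, 332 (81.8%) kept their direction, with a median of 2.05 before and 2.31 after, which covers these genes only. In the Tg members free RNA made up an estimated median of 107% of the 844 genes' level, against 38.1% over all genes tested. It was 50% or more in 554 of the 844 (65.6%), as in 37.3% of all. Scin stood at -3.21 after the subtraction, with an edgeR adjusted p of 0.0514. With the other profile 0 genes were called as well, with 813 at an unadjusted p under 0.05, and 151 of 158 lower and 660 of 746 higher genes kept their direction. The medians went from -1.11 to -1.34 in the lower and from 2.05 to 1.72 in the higher genes.

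Genes with blood or secretion RNA show the size of that shift. Hbb-bs, a hemoglobin chain, stood at 19.98 and 25.8 CPM in WT and at 1091 and 667 CPM in Tg members, and was higher still in the free RNA, at 4538 and 2457 CPM in the Tg mice. Bpifa1, a secreted antimicrobial protein, stood at 16.4, 4.07, 667 and 185 CPM in the members and at 30.6, 0.754, 999 and 203 CPM in the free RNA. Both were called (5.29 ± 0.34 and 5.00 ± 0.68), and the change of Bpifa1 ran from 3.81 to 7.64 over the alternatives. Scgb1a1 was called higher as well (1.94 ± 0.49, adjusted p = 0.0462) but turned to -12.4 after the subtraction of the ranked profile, and Scgb3a1 was called higher (2.15 ± 0.50).

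Some of the higher genes stood above the free RNA. In both Tg mice, 203 of the 844 (24.1%) stood at 2 or more times the free RNA, 144 of them unnamed loci, as did 16.0% of all genes tested. Of the 167 lower genes, 58 (34.7%) stood at 2 or more times the free RNA in both WT mice, as did 5.34% of all. Both shares were read in the genotype where the genes were called higher. The calling itself therefore favours them, and they are no test of where the RNA came from. Ltf, the iron-binding lactoferrin, stood at 50.9 and 66.5 CPM in WT and 200 and 222 CPM in Tg members, with 49.3, 19.4, 97.9 and 74.1 CPM in the free RNA (1.84 ± 0.21, adjusted p = 0.00279). Its ratio to the free RNA was 1.03, 3.43, 2.04 and 2.996, and overlapped between genotypes. Rptn, an epidermal barrier protein, stood at 9.99 and 8.15 against 73.2 and 44.6 CPM (2.59 ± 0.36). Erbb4, a receptor of neuregulins, stood at 40.0 and 44.8 against 87.4 and 73.1 CPM (0.90 ± 0.23, adjusted p = 0.0459). Rptn and Erbb4 were chosen after their values were seen.

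Counts called in the pathway lists are to be read against the 6.26% of all genes called higher and 1.24% called lower in Tg members. In the Notch pathway, 1 of 7 genes tested was higher in Tg members, Hes1, at 96.3 and 67.9 against 330 and 178 CPM (1.55 ± 0.32, adjusted p = 0.0239), with 139 and 120 against 209 and 187 CPM in the free RNA. Of 13 hypoxia genes, Egln3 was lower and Ldha, a glycolytic enzyme, was higher. Of 13 p53 targets, Mdm2 was lower (-0.98 ± 0.22) and none was higher, and of 14 interferon-stimulated genes 1 was lower and none was higher. Other lists held more calls. Of 17 immediate early and heat shock genes, 5 were higher and none was lower (Jun, Hspa1a, Hspa1b, Hsp90aa1 and Hspa8), and in the WT mice all 5 stood below the free RNA. The sum of the whole list was below the free RNA in the Tg mice too, at 1028 and 1056 against 2428 and 2451 CPM. Of 14 genes of mucosal immunity, 4 were higher (Ltf, C3, Bpifa1 and Bpifb1) and Pigr was lower. Of 20 genes of xenobiotic metabolism, 4 were higher, among them Cyp4b1, Gsta3 and Cbr2, and none was lower. The sums of both lists were also higher in the free RNA of the Tg mice. They were 3265, 2973, 6408 and 6470 CPM there for mucosal immunity, and 6132, 6133, 10103 and 8264 CPM for xenobiotic metabolism. Of 16 secretory transcription factors, Foxa3, Nkx2-1 and Tfcp2l1 were lower and none was higher. Terf2, the mouse gene of TRF2, had 227, 62, 181 and 144 UMIs in the members and was not called (-0.57 ± 0.21, adjusted p = 0.127). It was added after values had been seen and does not measure the transgene.

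Genotype calls were also made in the other airway nuclei of the same mice, at 6.66% of 8990 genes in club nuclei (5.63% higher and 1.03% lower) and 9.06% of 14499 in ciliated nuclei (6.92% higher and 2.14% lower). Whether the genotype effect differed between members and club nuclei was tested as an interaction, in which 9 of 12235 genes (0.0736%) were called, 0.049% with a higher and 0.0245% with a lower change in the members. Plcl1 fell by 2.65 in the members, and its change in club nuclei was -1.16, each from a fit of that class alone. The difference in the joint fit of both classes, with its own scaling and filter, was -1.34 ± 0.26 (adjusted p = 0.0469). Chn2 and Kcnj15 also had a lower change in the members, and Adcy2, Nhs, Pde7b, Tmem163, Slc8a1 and Plcb1 a higher one. Adcy2, an adenylyl cyclase, stood at 251, 85.5, 544 and 422 CPM in the members and at 65.9, 29.7, 16.6 and 32.9 CPM in club nuclei (2.06 ± 0.34, adjusted p = 0.017). The club nuclei of Tg replicate 1 held 2 UMIs of Adcy2 and 46 nuclei in all. Club nuclei also had to pass a bar set by the free RNA of their mouse, which was higher in both Tg mice. Without either Tg mouse edgeR called 0 genes, with 538 and 663 at an unadjusted p under 0.05, and without WT replicate 1 or 2 it called 52 and 15. DESeq2 called 0, with 155 at an unadjusted p under 0.05. In the main edgeR fit, 648 of the 12235 genes had an unadjusted p under 0.05.

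The members varied in Lgr6, a gene of the rule. In the 3 mice with at least 100 nuclei on both sides, members with an Lgr6 UMI were set beside those without, as a description with no test. Members without Lgr6 had to pass the rule on its other genes, and the genes given here were chosen after their values were seen. Those with Lgr6 had a median of 4382, 3444 and 4515 UMIs in WT replicate 1, Tg replicate 1 and Tg replicate 2, and the others 3619, 2872 and 4426. Adcy2 stood at 346, 589 and 527 CPM with and 166, 359 and 237 CPM without Lgr6, in the same order. Muc16, a membrane mucin, stood at 60.8, 302 and 181 CPM with and 29.3, 163 and 75.9 CPM without, and Chrm3, the muscarinic receptor of airway glands, at 379, 352 and 400 against 215, 232 and 214 CPM. Col23a1, which was low in the members against club nuclei, stood at 295, 329 and 371 CPM with and 492, 425 and 849 CPM without. Nwd2 and Lepr, the leptin receptor, were likewise lower with Lgr6 in each of the 3 mice, as were 609 of the 4349 genes compared, and 701 (16.1%) were higher in each. Muc5ac stood at 132, 28.9 and 20.5 CPM with and 138, 105 and 32.2 CPM without Lgr6. Muc5b went both ways, with 1066, 733 and 644 against 911, 835 and 473 CPM.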

How the data were processed

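Single-nucleus RNA-Seq was done on whole lung with the 10x Genomics 3′ kit. Per the labels, the authors ran Cell Ranger 6.1.1 on mm10, and the paper states that intronic reads were kept. The deposited matrices hold raw UMI counts of 32285 genes for every barcode, with no filter and no removal of free RNA. Members, and nuclei of 7 other classes (at least 2 times the UMIs that free RNA would give), were picked by marker counts, and no doublet caller was run. The members and lists were chosen with earlier results of these data known. Counts were summed per mouse and class and tested with edgeR 4.0.16 (TMM, filterByExpr with a minimum of 10, quasi-likelihood test, Benjamini-Hochberg), with the mouse as a block between classes. DESeq2 1.42.0, limma 3.58.1, R 4.3.3, Python 3.11.15, NumPy 2.4.6, pandas 2.3.3, SciPy 1.17.1 and Matplotlib 3.10.9 were also used. The fits were tested on simulated counts.

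For the genotype comparison, genes called without overlap were ranked by fold, and the top 10 in each direction were named, and between classes the 15 in each direction with at least 50 CPM and the same direction in 4 mice, besides listed genes. Unnamed loci were counted only in the comparisons between classes, and a few genes that met these rules are not reported here. The planned free-RNA profile, of barcodes with 20 to 100 UMIs, rested on 291 to 597 barcodes a mouse, and the barcodes ranked 45000 to 90000 were used in its place. The subtraction was run with both profiles. Members with 2500 or more UMIs, a stricter rule (8 UMIs from 5 genes), a looser rule for shares (4 UMIs from 3 genes), a block for the replicate number, fits of all genes whatever their counts, and each mouse left out were the other alternatives.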

Additional observations from a re-analysis of the deposited data

Results flagged for a closer look

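The genotype effect differed between the Tacr1 Lgr6 Vtcn1 nuclei and club nuclei in 9 genes by edgeR's interaction test. As the log2 change in the members minus that in club nuclei, the differences were 2.08 for Nhs, 2.06 for Adcy2, 1.46 for Pde7b, 1.45 for Tmem163, 1.37 for Slc8a1, 1.26 for Plcb1, -1.07 for Chn2, -1.23 for Kcnj15 and -1.34 for Plcl1, with adjusted p-values between 0.017 and 0.0469. Nhs stood at 85.1, 61.1, 147 and 156 CPM in the members and at 49.4, 24.8, 24.9 and 15.8 CPM in club nuclei. Chn2 stood at 471, 635, 231 and 298 CPM in the members and at 507, 609, 589 and 538 CPM in club nuclei. Kcnj15 stood at 506, 929, 170 and 221 CPM in the members and at 521, 650, 373 and 392 CPM in club nuclei. Tmem163, Pde7b, Slc8a1 and Plcb1 lay below the free RNA in the members of both WT mice. The club nuclei of Tg replicate 1 held between 2 and 71 UMIs of these 9 genes, and each gene was called in 5 or 6 of the 9 alternatives. The alternatives share most of their nuclei with the main fit and are no independent support. DESeq2 called none of the 9. Of the 12235 genes tested, 648 had an unadjusted p under 0.05 in edgeR's main fit.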

How the results depend on the processing

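Between genotypes, 1011 genes were called with all mice. The count was 2240 without the filter on low counts, 1693 without the members that passed another gate and 0 after free RNA was subtracted with either profile, with 813 (barcodes of 20 to 100 UMIs) and 1388 (ranked barcodes) genes at an unadjusted p under 0.05. With a mouse left out it was lowest, 298, without Tg replicate 1, and highest, 2051, without WT replicate 2. The share of higher genes among those called was 83.5%, and 70.1% to 85.9% with a mouse left out. It was 72.3% without the members of another gate. Not all of the 20 named genes had a value in every alternative. DESeq2 called 9 of the 9 with an adjusted p, 13 of 14 were called without the members of another gate, and 0 of 15 (barcodes of 20 to 100 UMIs) and 0 of 11 (ranked barcodes) after subtraction. With a mouse left out the calls were 8 of 18 without WT replicate 1, 9 of 13 without Tg replicate 1, 17 of 20 without Tg replicate 2 and 20 of 20 without WT replicate 2. Of the genotype changes of single genes, 2 turned: Spdef, not called, ran from -1.20 to 0.060 with a mouse left out (-0.77 with all mice), and Scgb1a1 went from 1.94 to -12.4 after the subtraction of the ranked profile. The numbers of the labels name no shared batch. Same-numbered mice deviated together with a correlation of 0.156 over 13484 genes, and with the replicate number as a block 2034 genes and all 20 named ones were called.

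Against club nuclei, 2078 genes were called, 1344 by DESeq2 and 1457 to 1881 with a mouse left out. Against ciliated nuclei the 4845 calls stayed within 3528 to 5613. The log2 folds of ciliated genes moved more, with Lrrc9 at -3.45 to -5.13 and Ttll6 at -2.86 to -5.57 over the alternatives. The interaction called 9 genes, and 0 by DESeq2, 27 without the filter, 57 without the members of another gate, 61 with the stricter rule and 0 to 52 with a mouse left out. The cause of these shifts was not tested.

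The share of members was 0.83 higher in Tg mice on the log2 scale. It turned to -0.074 with 2500 or more UMIs. With a mouse left out it was lowest, -0.14, without Tg replicate 1, -0.028 without WT replicate 2, and highest, 3.27, without WT replicate 1. It was 0.25 with barcodes thinned to 1500 UMIs and 0.56 to 0.80 with the other rules. Taken among the nuclei of all gates, the share was 0.067 higher in Tg mice. The ratio to club nuclei was 2.58 higher on the same scale, and 0.18 to 5.56 with a mouse left out. The 91 members of WT replicate 2 and the 46 club nuclei of Tg replicate 1 limit what the sums can show.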
